A study of Mus musculus with 18 samples.

Results

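The genes described here encode the motile cilium axoneme, the microtubule core that gives a cilium its shape and its beat. The list holds 40 genes, chosen by name from the 47729 gene rows of each file, and 34 of them reached 1 TPM (transcript abundance corrected for gene length and scaled to a fixed total per library) in at least 2 of 18 libraries. The other 6 were Dnah1, Dnah3, Dnah8, Dnah10, Dnah12 and Spag6. Among those, Dnah3 reached 1.25 TPM in 1 library, Spag6 peaked at 0.924 TPM and Dnah12 at 0.28 TPM. Just inside the limit were Dnah6, Hydin and Spag17, each above it in 2 libraries. Dnah6 and Hydin passed only through the libraries of sorted day 10 cultures, so a high value there was a condition of their being tested. Dnah5 passed through those 2 libraries and 1 unsorted day 10 library, so that these 3 members would not have been tested without the sorted day 10 cultures.

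Hair cells are the mechanosensory cells of the cochlea, and supporting cells are their epithelial neighbours. RNA was sequenced from mouse cochlea in 9 groups of 2 libraries, with 3 groups sorted from native sensory epithelium on postnatal day 2 and named Atoh1, Lgr5 and Sox2. The study treats native hair cells and native supporting cells as its first pair, and the Atoh1 sort is taken as the hair cells and the Lgr5 and Sox2 sorts as the supporting cells. The other groups are primary cochlear organoids called LCP, which the labels do not spell out. Unsorted organoids were sampled before differentiation (day 0, D0) and after 2, 4 and 10 days of it (D2, D4, D10). Sorted organoids were sampled at D0 and at D10. Which marker the organoids were sorted on, which reporter alleles and strain were used, and how old the culture donors were is not given in those labels. One protocol text attached to all 18 libraries states that a sample came from the ears of a single pup, after the epithelium was freed of mesenchyme and neurons. Whether culture replicates were separate cultures is not stated, so p-values on them measure the spread between these samples, which may be technical.

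The hair cell carries 1 true cilium, the kinocilium, beside the actin-filled stereocilia of its bundle. In the mouse cochlea the kinocilium is present during bundle formation, where it guides the position of the bundle, and it is lost as the cochlea matures. Its core resembles that of motile cilia: outer doublet microtubules joined by the nexin-dynein regulatory complex, outer and inner dynein arms that drive sliding, radial spokes, and a central apparatus. Genes for these parts are activated in many ciliated tissues by Foxj1, a forkhead transcription factor, and by the RFX factors, which bind a DNA element called the X-box, an inverted repeat.

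Start regions of the genes were read because many members rose together in the cultures. RefSeq windows of 300 bases (assembly GRCm38.p6, 250 before and 50 after a start site) were found for 35 of the 40 genes, and not for Foxj1, Rsph1, Rsph4a, Lrrc6 and Dnah3. Windows were searched on both strands for 3 motifs. The first, called the core here, was GTTGCC, the letters of 1 arm of the X-box. The second was the full X-box consensus, a pair of such arms facing each other, which can contain a core. The last was the forkhead motif TGTTTAC. The core occurred in 15 of the 35 genes (42.9%), against 14.1% of all 27025 genes with a window. This strict X-box occurred in 0 of 35, against 0.529% of all genes. Looser forms of the X-box, with other letters or spacing, were not searched, so their number is unknown. The forkhead letters occurred in 1 (Cfap43), against 4.05% of all genes. Of the 31 genes that rose in sorted cultures, 27 had a window and 12 of these (44.4%) held a core, and of the 8 others with a window 3 did (37.5%). The 8 include Dnah1, Dnah8, Dnah10, Dnah12 and Spag6, which were too low to be tested for a rise. The 3 with a core were Dnah10, Spag6 and Rfx3. A match of letters is a description and not a bound site.

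The 250 bases before the start of Drc1 and of Cfap44 are shown because Drc1 marks the list and had the largest rise of the unsorted cultures at D10, and because Cfap44 had the smallest adjusted p of the sorted cultures. Drc1 encodes a scaffold subunit of the nexin-dynein regulatory complex, and its stretch is chr5:30281143-30281392 on the plus strand. Cfap44 encodes part of the tether that holds an inner dynein arm to its doublet, and its stretch is chr16:44394549-44394798 on the plus strand. Both are written 5′ to 3′ with cores in capitals.
Drc1: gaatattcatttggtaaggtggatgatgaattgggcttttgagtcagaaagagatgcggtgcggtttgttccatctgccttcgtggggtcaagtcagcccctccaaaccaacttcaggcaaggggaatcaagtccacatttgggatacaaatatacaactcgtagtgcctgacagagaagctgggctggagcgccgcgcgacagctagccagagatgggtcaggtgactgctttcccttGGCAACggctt
Cfap44: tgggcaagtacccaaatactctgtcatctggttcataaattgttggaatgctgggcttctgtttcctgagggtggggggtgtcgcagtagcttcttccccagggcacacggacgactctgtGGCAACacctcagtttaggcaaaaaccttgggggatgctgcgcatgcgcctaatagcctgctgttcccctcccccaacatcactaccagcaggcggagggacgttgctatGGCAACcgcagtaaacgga
In Drc1 the core began 11 bases before the start, and in Cfap44 the cores began 129 and 19 bases before it. Shorter stretches follow for other members of different roles, with the core in capitals and its flanks in lower case on the gene's strand. Where a gene held several cores, 1 is shown. The core shown lay nearest the start in Hydin, then Tekt1, Iqcg and Tekt2, and farther out in Spag16 and Rfx2.
Hydin (begins 13 bases before the start): ggttgctgtGGCAACagatggtaa
Iqcg (begins 19 bases before): gcgcgacgcGTTGCCatagctacc
Tekt1 (begins 15 bases before): gtccgtccgGTTGCCatagagacc
Tekt2 (begins 22 bases before 1 of its RefSeq starts): cggttgctcGGCAACcagagccgc
Spag16 (begins 103 bases before): aggcaacgcGTTGCCgtagtaact
Rfx2 (begins 116 bases before): ttggtaaccGTTGCCgggcgcaac

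Library totals were the same by construction, so read depth is unknown, and 14381 to 16713 genes reached 1 TPM per library. All 12 hair cell markers checked were present in the Atoh1 sort, where they summed to 2679 and 3597 TPM, but also in the Lgr5 sort (1123 and 2063 TPM) and the Sox2 sort (1664 and 1956 TPM). Replicate 2 of every group was sequenced on 1 date and replicate 1 on 2 others. Replicates of the unsorted cultures stood apart: 33 of the 34 tested axoneme genes were higher in replicate 2 at D4, and 33 of 34 at D10. In sorted cultures at D10, 30 of 34 were higher in replicate 1. The library of sorted LCP D0 replicate 2 stood apart in 1 gene of the list, Dnah11.

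Summed axoneme transcripts were lowest in D0 cultures, higher later in differentiation and highest in the sorted D10 cultures. Pairs of values are given for replicate 1 and then replicate 2. Summed over the 40 genes they came to 101 and 84.8 TPM in unsorted D0 cultures, 102 and 136 at D2, 238 and 890 at D4, and 443 and 945 at D10. In sorted cultures the sum was 88.8 and 90.4 TPM at D0 and 1872 and 1453 at D10. Native tissue held 969 and 1084 TPM in the Atoh1 sort, 405 and 624 in the Lgr5 sort and 497 and 550 in the Sox2 sort. The sorted D10 libraries both lay above both Atoh1 libraries, with a ratio of means of 1.62. The unsorted D10 libraries both lay below them, with a ratio of 0.676. In bulk RNA, a different share of ciliated cells and a different amount of RNA per cell cannot be told apart.

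**Figure D1:**
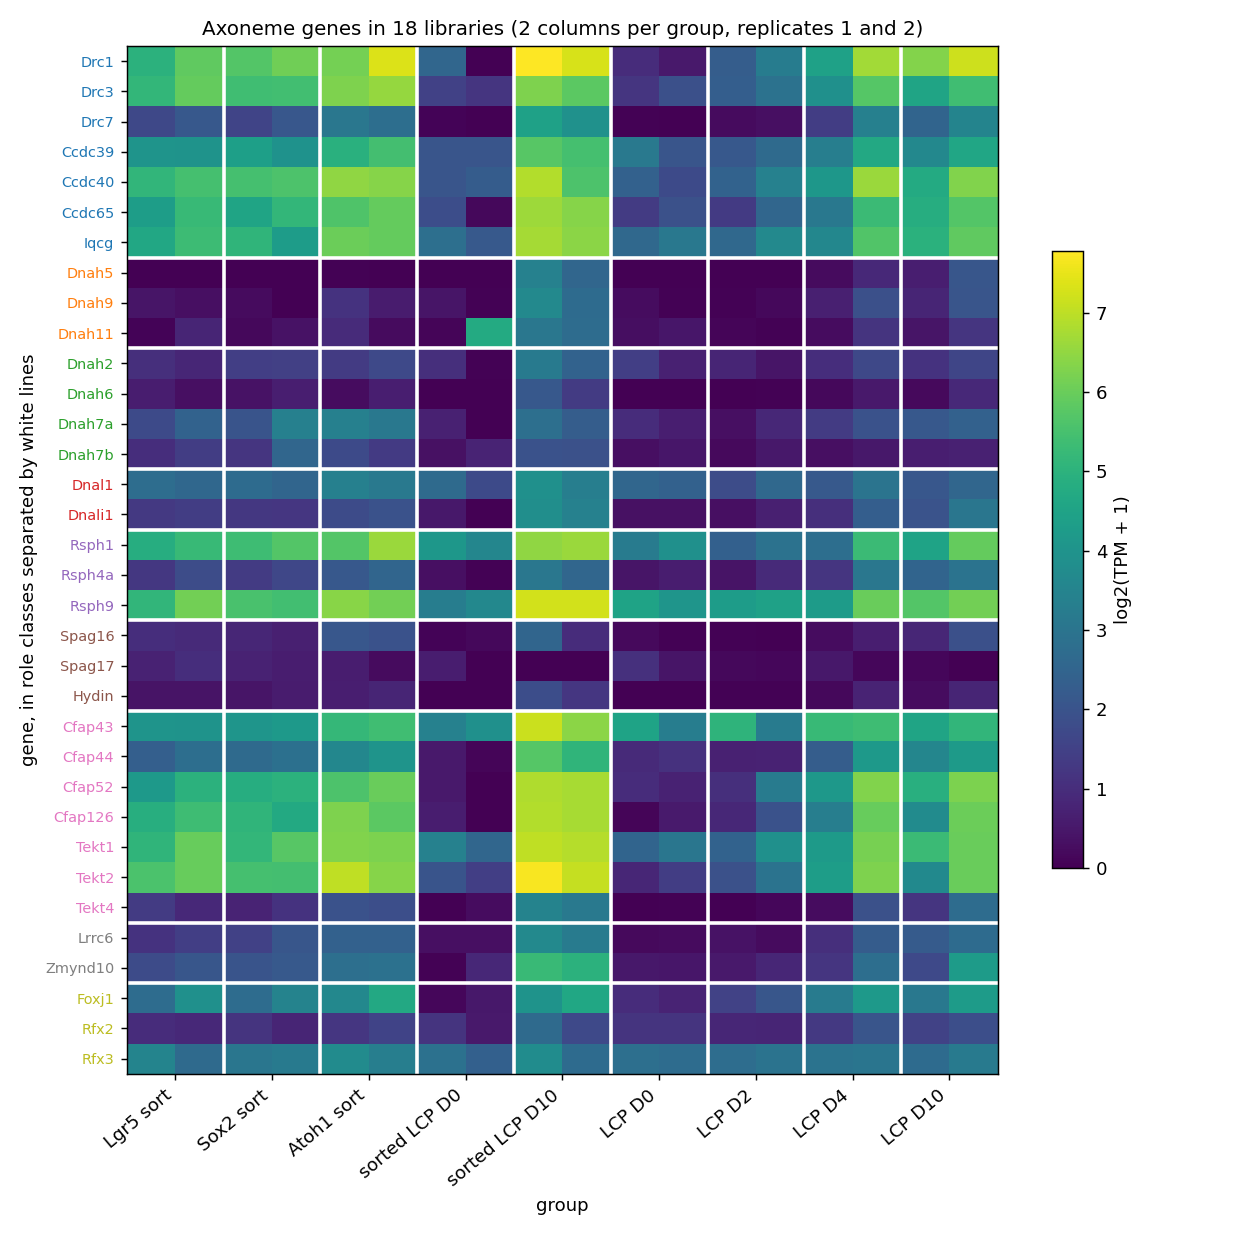
Abundance of the 34 tested axoneme genes (rows, log2 of TPM + 1, colour scale from 0) in the 18 libraries (columns, replicates 1 and 2 of each group), with rows grouped by role. Sorted and unsorted D0 cultures are dark in most rows, and the sorted D10 columns are the brightest in 26 of the 34 rows by group mean.

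The hair cell markers moved along with these sums. They came to 97.7 and 104 TPM in unsorted D0 cultures, 380 and 1453 at D4, 826 and 1542 at D10, and 2704 and 2214 TPM in sorted D10 cultures. Per TPM of hair cell marker, the axoneme genes held 0.692 and 0.657 TPM in the sorted D10 libraries and 0.536 and 0.613 in the unsorted D10 libraries, against 0.362 and 0.301 in the Atoh1 sort. The Lgr5 sort gave 0.361 and 0.303 and the Sox2 sort 0.299 and 0.281, so the 6 native libraries lay below the 4 culture libraries of D10. The ratio was higher still at D0, when both sums were low, at 1.36 and 1.68 in sorted and 1.03 and 0.814 in unsorted cultures. It was 0.802 and 0.395 at D2 and 0.624 and 0.612 at D4. The spread between culture replicates at D4 was shared by both sums, which were each higher in replicate 2.

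**Figure D2:**
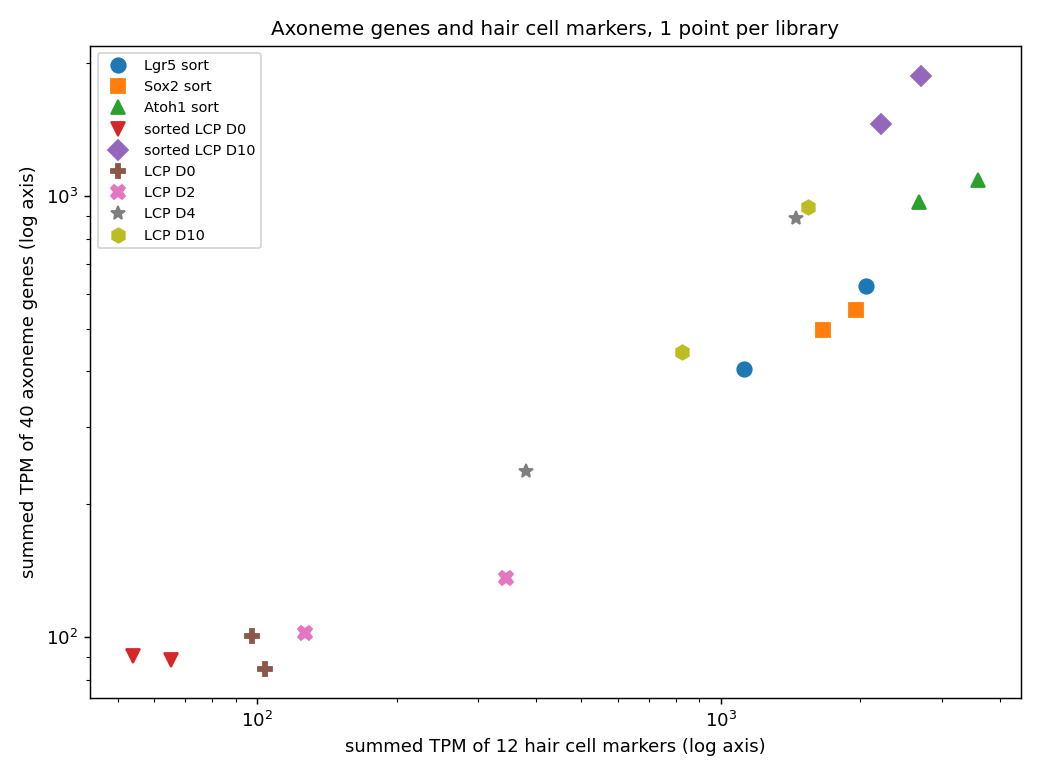
Summed TPM of the 40 axoneme genes (vertical, log axis) against the summed TPM of 12 hair cell markers (horizontal, log axis), 1 point per library, with a symbol per group. The sorted D10 points lie at 1872 and 1453 TPM of axoneme genes, above the Atoh1 sort at 969 and 1084, although 1 Atoh1 library holds the highest marker sum at 3597 TPM.

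In the first native comparison, no member passed an adjusted p of 0.05 between the Atoh1 sort and the supporting cell sorts (Lgr5 and Sox2, averaged). The background was low, with 0.318% of the 20463 tested genes higher and 0.503% lower, and the smallest adjusted p of a member was 0.233. At an unadjusted p under 0.05, 6 members and 2448 genes of all were counted. Of the 34 tested members 31 had a positive difference, with a median of 0.86 against 0.03 for all genes (log2 of TPM + 1). In 24 members both Atoh1 libraries exceeded all 4 supporting cell libraries, a pattern found in 14.8% of all genes, and in 1 both lay below, as in 9.29% of all genes. All groups share 1 estimate of spread in this fit, so it includes the spread between culture replicates. A fit of the native groups alone also gave 0 members. The part of the shared spread in the lack of calls was not tested. The 12 hair cell markers also gave 0 higher and 0 lower here, with a median of 0.95. So did the 12 supporting cell markers, with a median of -0.65. The lack of calls is thus not particular to the axoneme genes.

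Axoneme genes of every structural class rose in sorted cultures. In sorted cultures 31 of the 34 tested members rose from D0 to D10 and 0 fell, where 13.3% of all genes rose and 10.7% fell. Dnah5, Dnah6 and Hydin, among the 31, were tested only because they were high in sorted D10 cultures. Their place in this count is therefore no support for it. The median difference of the 34 was 3.16 on the log2 scale against 0.02 for all genes. The D10 libraries both exceeded the D0 libraries in 31 members, as in 31.6% of all genes, and both lay below in 0, against 28.8%. The 3 members not past the threshold were Dnah11, Spag17 and Rfx3. A fit of those 4 libraries alone gave 21 calls. Some of the 31 calls were lost when a single library was left out, but their signs held. Dnah11, outside the 31, then ranged from -1.83 to 2.83.

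In unsorted cultures 17 of 34 members rose from D0 to D10 and 0 fell, where 3.05% of all genes rose and 4.34% fell, and their median difference was 1.81. Under median-of-ratios scaling the split of all calls there went from 624 higher and 888 lower to 796 and 704, and 16 members rose. By D4, 9 members had risen and 0 fallen, where 1.09% of all genes had risen and 2.29% fallen, and their median was 1.37. At D2 the counts were 0 and 0, where 0.0147% and 0.0342% of all genes had risen and fallen, with 1 member and 921 genes at an unadjusted p under 0.05 and a median of 0.07. The 3 comparisons share the D0 libraries. The D4 count depended on single libraries: it was 16 without D4 replicate 1, 0 without D4 replicate 2, 0 without D0 replicate 1 and 2 without D0 replicate 2. The D10 count was 4 without D10 replicate 2, 4 without D0 replicate 1, 8 without D0 replicate 2 and 18 without D10 replicate 1, and Drc1, Drc3, Cfap52 and Lrrc6 passed in each of these. In fits of the 4 compared libraries alone, both counts were 0.

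**Figure D3:**
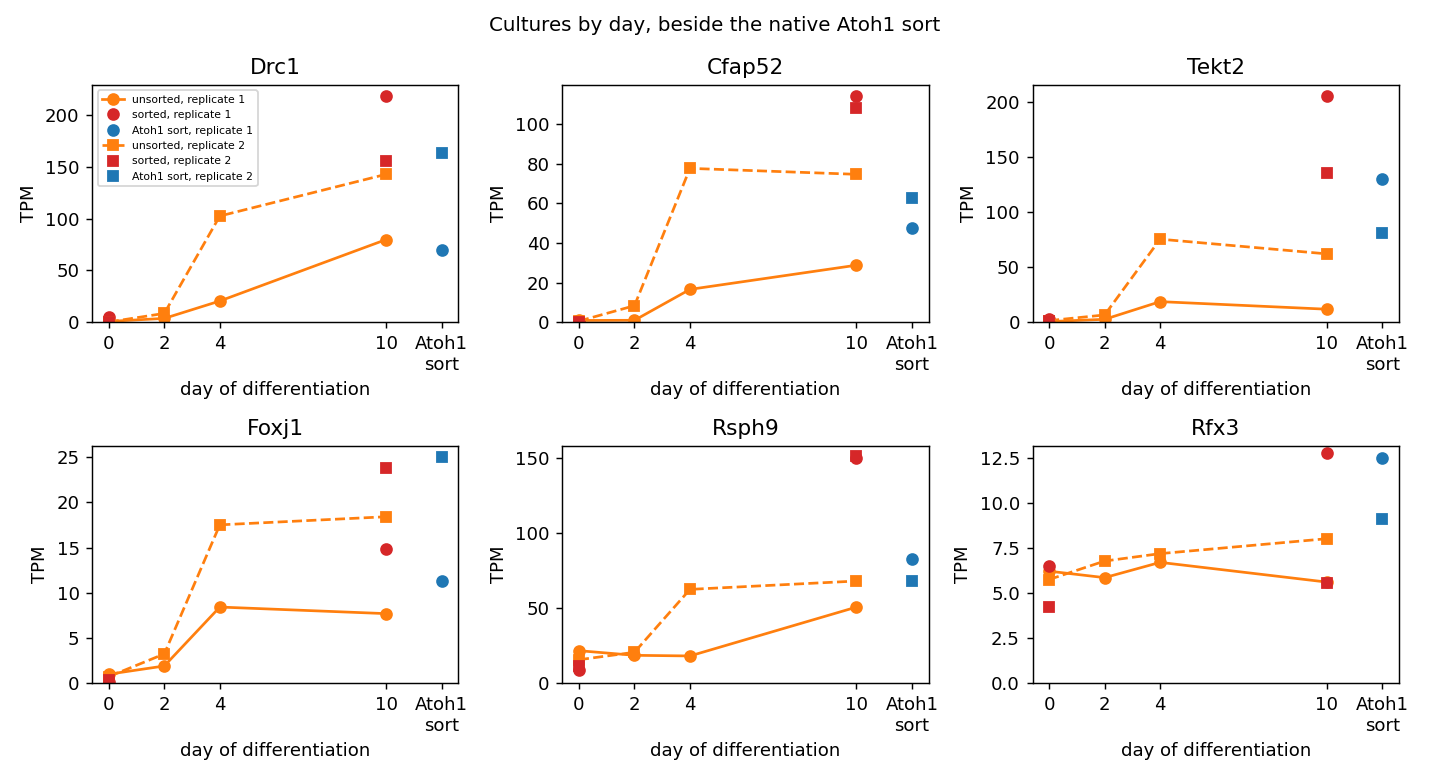
TPM of 6 axoneme genes in unsorted cultures by day (orange lines, solid for replicate 1 and dashed for replicate 2), in sorted cultures on D0 and D10 (red) and in the native Atoh1 sort (blue, at the right of each panel). Drc1, Cfap52, Tekt2 and Foxj1 start near 0 and climb by D4, Rsph9 is already at 21.7 and 15.7 TPM on D0, and Rfx3 stays between 5.61 and 8.02 TPM in unsorted cultures.

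Against native hair cells, the sorted D10 cultures were higher in 4 of the 34 tested members and lower in 0, where 4.51% of all genes were higher and 7.34% lower. The 4 were Dnah5, Dnah9, Dnah6 and Dnali1, all dynein arm subunits. Dnah5 and Dnah6 were tested only because they were high in sorted D10 cultures, so their place in this count is no support for it. The median over members was 0.78 against -0.11 for all genes, and both sorted D10 libraries exceeded both Atoh1 libraries in 24 members, a pattern found in 24.9% of all genes. Both lay below in 3 (Drc3, Dnah7a and Spag17), as in 36.0% of all genes. At an unadjusted p under 0.05 there were 13 members and 5426 genes of all. Dnah5 was the 1 gene of these kept by every fit with a library left out, which gave 2 calls without Atoh1 replicate 1, 1 without Atoh1 replicate 2, 1 without sorted D10 replicate 1 and 3 without sorted D10 replicate 2. With another scaling (median of ratios), which moved the median of all genes in this comparison from -0.11 to 0.04, 9 members were higher, and the split of all calls went from 922 higher and 1502 lower to 1313 and 1142.

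**Figure D4:**
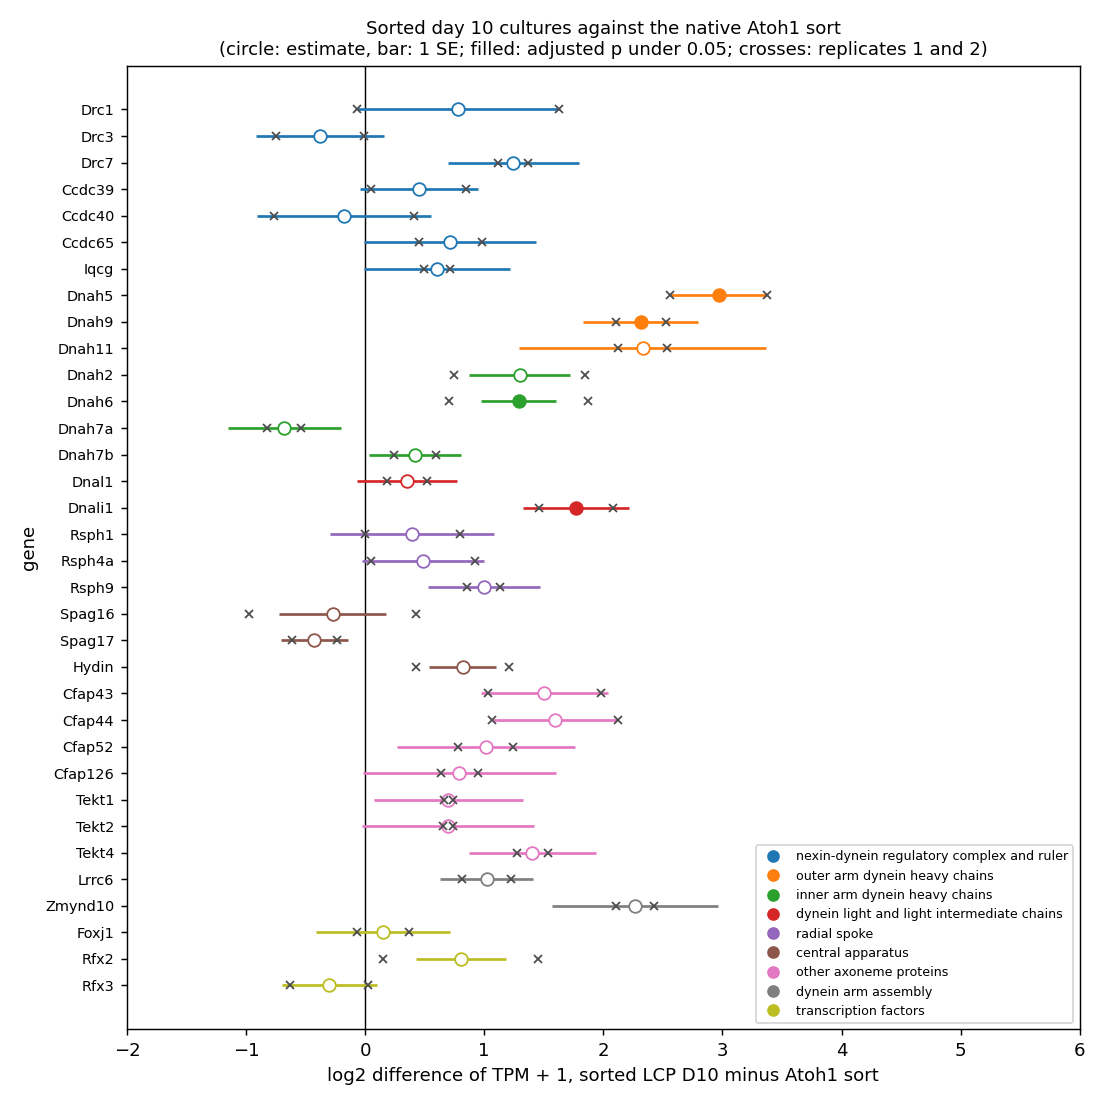
Log2 difference of TPM + 1 between sorted D10 cultures and the native Atoh1 sort for the 34 tested members (circles, bars of 1 SE, coloured by role, with crosses for replicates 1 and 2). Filled circles mark the 4 members past an adjusted p of 0.05, from Dnah5 at 2.97 to Dnah6 at 1.29, and the regulatory complex genes in blue straddle 0.

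The unsorted D10 cultures did not differ from the Atoh1 sort in any member at that threshold (0 of 34 higher or lower, where 3.99% of all genes were higher and 8.01% lower). The smallest adjusted p was 0.0516, and 4 members and 5415 genes of all had an unadjusted p under 0.05. The median was -0.35 against -0.15 for all genes, and both culture libraries lay below both Atoh1 libraries in 14 members, where 34.7% of all genes did, and above in 2, where 19.5% did. This comparison shares the Atoh1 libraries with the one before. Under median-of-ratios scaling the split of all calls went from 816 higher and 1640 lower to 1064 and 1322, and 1 member was then called, as also without D10 replicate 1 (1 higher) and without D10 replicate 2 (1 lower).

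At D10, sorted cultures were higher than unsorted ones in 2 of 34 members and lower in 0, where 4.29% of all genes were higher and 1.94% lower, with a median of 1.23 against 0 for all genes. The 2 were Dnah5 and Dnah6. Both were tested only because they were high in sorted D10 cultures, so the count is no support for a difference. This count was 10 without unsorted D10 replicate 2, 0 without unsorted D10 replicate 1, 0 without sorted D10 replicate 1 and 1 without sorted D10 replicate 2. The change from D0 to D10 was larger in sorted than in unsorted cultures in 34 of 34 members by sign. Under median-of-ratios scaling it was larger in 33 and smaller in 1. The share of all genes with that sign was not counted. Dnah5, Dnah6 and Hydin are among the 34 and were tested only because they were high in sorted D10 cultures. The median was 1.21 against 0.18 for all genes, but the difference of the changes passed in 0 members. Of all genes, 0.166% passed higher and 0.0391% lower. The smallest adjusted p was 0.277, with 11 members and 2267 genes of all at an unadjusted p under 0.05, and without unsorted D10 replicate 2 the count was 2.

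The nexin-dynein regulatory complex joins neighbouring doublets and controls the dynein arms, and the ruler proteins Ccdc39 and Ccdc40 set the spacing along the doublet. Drc1 (chr5:30281388-30366695, plus strand) stood at 69.8 and 163 TPM in the Atoh1 sort, 31.2 and 57.9 in the Lgr5 sort and 50.8 and 67.2 in the Sox2 sort. In sorted cultures it was 4.96 and 0 TPM at D0 and 218 and 155 at D10, and in unsorted cultures 0.987 and 0.438 TPM at D0, 3.88 and 8.69 at D2, 20.6 and 102 at D4 and 79.8 and 143 at D10. At D10 the unsorted Drc1 values thus lay within the range of the Atoh1 sort and the sorted ones within or above it, from under 5 TPM at D0. The rise was 6.24 (SE 0.85, adjusted p = 0.000471) in sorted cultures on the log2 scale and 5.99 (SE 0.85, adjusted p = 0.00167) in unsorted ones, where D4 already showed 4.81 (SE 0.85, adjusted p = 0.00995). Against the Atoh1 sort, sorted D10 cultures differed by 0.78 (SE 0.85, adjusted p = 0.612), with overlapping libraries, and the Atoh1 sort itself exceeded the supporting cell sorts by 1.08 (SE 0.73, adjusted p = 0.623).

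Drc3, another subunit, read 76.4 and 92.6 TPM in the Atoh1 sort, 34.6 and 60.6 in the Lgr5 sort and 41.2 and 42.2 in the Sox2 sort. Sorted cultures held 1.84 and 1.3 TPM at D0 and 75.8 and 54.8 at D10, and unsorted cultures 1.29 and 2.71 TPM at D0, 3.98 and 6.62 at D2, 13.8 and 52.3 at D4 and 22.5 and 40.6 at D10. Drc3 rose by 4.68 in sorted and 3.42 in unsorted cultures, but it was among the few members whose sorted D10 libraries both lay below both Atoh1 libraries (-0.38, SE 0.54, adjusted p = 0.71). Drc7 was much scarcer, with 7.41 and 5.99 TPM in the Atoh1 sort, 2.25 and 3.43 in the Lgr5 sort and 2.02 and 3.35 in the Sox2 sort. In sorted cultures Drc7 read 0.0537 and 0 TPM at D0 and 20.7 and 14.1 at D10, and in unsorted cultures 0.0263 and 0.0172 TPM at D0, 0.177 and 0.253 at D2, 1.65 and 9.55 at D4 and 4.68 and 10.4 at D10. Drc7 rose by 4.14 in sorted and 2.98 in unsorted cultures.

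Ccdc65, also known as Drc2, pairs with Drc1 at the base of the complex. It stood at 48.9 and 59.6 TPM in the Atoh1 sort, 19 and 36.8 in the Lgr5 sort and 22.2 and 34.6 in the Sox2 sort, and in sorted cultures at 2.55 and 0.12 TPM at D0 and 97.5 and 81.7 at D10. The unsorted series read 1.56 and 2.77 TPM at D0, 1.51 and 4.92 at D2, 7.62 and 38 at D4 and 27.5 and 51 at D10, so that both base subunits were higher in each D4 and D10 library than in the D0 libraries. Iqcg, another subunit, measured 63.8 and 60.3 TPM in the Atoh1 sort, 24.4 and 39.5 in the Lgr5 sort and 33.2 and 18.5 in the Sox2 sort. In sorted cultures Iqcg read 6.22 and 3.47 TPM at D0 and 105 and 85.3 at D10, and in unsorted cultures 5.15 and 7.68 TPM at D0, 5.14 and 11.5 at D2, 11.1 and 49.7 at D4 and 30.4 and 58.3 at D10. Iqcg shares 48.1% of its exonic bases with Lrch3 on the opposite strand, and these libraries do not mark the strand, and Lrch3 read 7.46 and 3.04 TPM in sorted D0 and 11.3 and 6.97 TPM in sorted D10 cultures. The part of Lrch3 in the Iqcg values was not tested. Ccdc65 rose by 5.50 in sorted and 3.63 in unsorted cultures, and Iqcg by 4.08 and 2.56.

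Ccdc39 and Ccdc40 rose together in sorted cultures. Ccdc39 was at 29.3 and 42.3 TPM in the Atoh1 sort, 15.1 and 15.1 in the Lgr5 sort and 20.1 and 14.6 in the Sox2 sort. In sorted cultures Ccdc39 read 3.11 and 3.15 TPM at D0 and 53.5 and 43.8 at D10, and in unsorted cultures 7.9 and 3.14 TPM at D0, 3.45 and 5.43 at D2, 9.06 and 25 at D4 and 11.3 and 23.4 at D10. Ccdc39 shares 16.9% of its exonic bases with Ttc14 on the opposite strand. Ttc14 read 39.4 and 28.2 TPM in sorted D0 and 64.3 and 44.2 TPM in sorted D10 cultures. The part of Ttc14 in the Ccdc39 values was not tested. Ccdc40 was at 87.8 and 81.4 TPM in the Atoh1 sort, 33.5 and 43.8 in the Lgr5 sort and 43.7 and 47.2 in the Sox2 sort. In sorted cultures Ccdc40 read 3.12 and 3.8 TPM at D0 and 117 and 47.4 at D10, and in unsorted cultures 4.34 and 2.32 TPM at D0, 4.44 and 9.71 at D2, 16.4 and 95.3 at D4 and 26.1 and 77.4 at D10. Both rose in sorted cultures, Ccdc39 by 3.58 and Ccdc40 by 4.09, and Ccdc40 but not Ccdc39 passed in unsorted ones (3.45, adjusted p = 0.0144, against 0.0947 for Ccdc39). 0 of the 7 genes of the complex and ruler passed the threshold between sorted D10 cultures and the Atoh1 sort.

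Outer arm dynein heavy chains, the motors that set beat frequency, held the 2 largest of the 4 called differences between sorted D10 cultures and the Atoh1 sort. Dnah5 (chr15:28203752-28472052, plus strand) was listed at 0.0221 and 0 TPM in the Atoh1 sort and at 0 in all 4 Lgr5 and Sox2 libraries. It read 0.0109 and 0.00128 TPM at D0 and 9.63 and 4.89 at D10 in sorted cultures, and 0 and 0.00863 TPM at D0, 0 and 0.00748 at D2, 0.181 and 0.872 at D4 and 0.585 and 3.23 at D10 in unsorted ones. No native library therefore approached the sorted D10 values, and the unsorted D10 values lay between. The difference from the Atoh1 sort was 2.97 (SE 0.41, adjusted p = 0.000863) in sorted cultures, and 1.36 (SE 0.41, adjusted p = 0.0516) in unsorted ones, which did not pass. Sorted D10 exceeded unsorted D10 by 1.61 (SE 0.41, adjusted p = 0.0404) and sorted D0 by 2.98.

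Dnah9 (chr11:65831282-66168551, minus strand), the other heavy chain of many outer arms, read 1.2 and 0.522 TPM in the Atoh1 sort, 0.363 and 0.256 in the Lgr5 sort and 0.181 and 0 in the Sox2 sort. Sorted cultures held 0.357 and 0.0272 TPM at D0 and 11.6 and 5.55 at D10, and unsorted ones 0.184 and 0.0411 TPM at D0, 0.0271 and 0.129 at D2, 0.599 and 2.76 at D4 and 0.752 and 3.12 at D10. Both sorted D10 libraries stood above every other library, and the difference from the Atoh1 sort was 2.31 (SE 0.48, adjusted p = 0.0098). Dnah11 (chr12:117877982-118199043, minus strand), an outer arm heavy chain of the proximal cilium, read 0.951 and 0.164 TPM in the Atoh1 sort, 0.0523 and 0.758 in the Lgr5 sort and 0.129 and 0.292 in the Sox2 sort. Unsorted cultures held 0.212 and 0.38 TPM at D0, 0.0742 and 0.0289 at D2, 0.2 and 1.27 at D4 and 0.363 and 1.31 at D10, while sorted cultures held 0.0683 and 25.9 TPM at D0 and 7.5 and 5.75 at D10. The value of 25.9 TPM belongs to sorted D0 replicate 2 alone. Cdca7l, which overlaps 4.44% of the exonic bases of Dnah11 on the opposite strand, read 15.7 and 14.6 TPM in the 2 sorted D0 libraries, and its part in the Dnah11 values was not tested. Dnah11 differed from the Atoh1 sort by 2.33 (SE 1.04, adjusted p = 0.175) with all libraries, and by 2.33 (adjusted p = 0.00466) when that sorted D0 library was left out of the fit, an alternative added after the data were seen. With all libraries, only Dnah5 and Dnah9 of this class passed against the Atoh1 sort, and Dnah5 was tested only because it was high in sorted D10 cultures. Against sorted D0, Dnah11 gave 0.50 (SE 1.04, adjusted p = 0.782), which became -1.83 without sorted D0 replicate 1. Dnah8, the remaining chain of this class, stayed under 1 TPM, at 0.684 and 0.893 TPM in the Atoh1 sort and 0.12 and 0.0532 TPM in sorted D10 cultures.

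**Figure D5:**
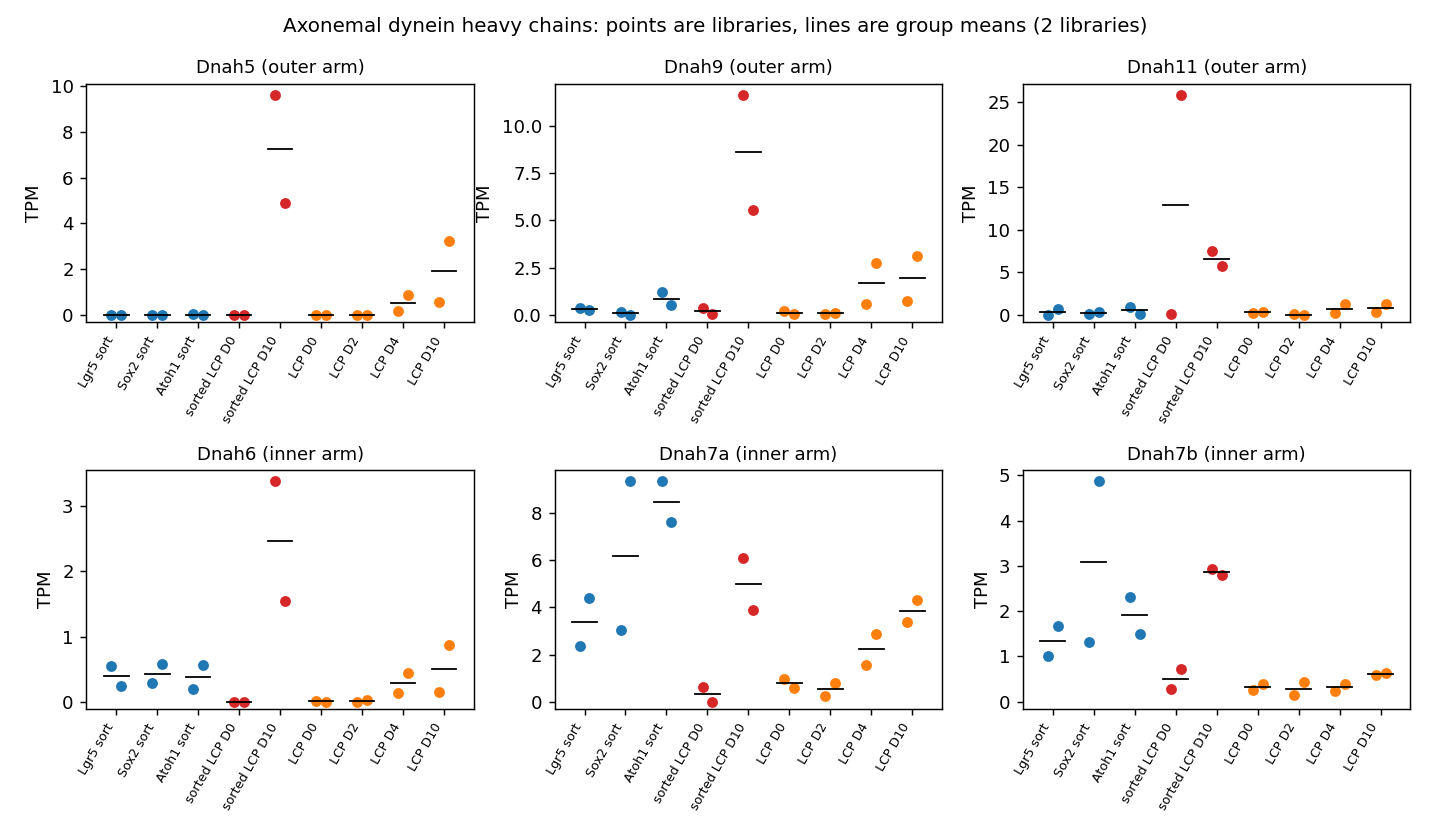
TPM of 3 outer arm and 3 inner arm dynein heavy chains in each library (points; blue for native sorts, red for sorted and orange for unsorted cultures), with lines for the group means of 2 libraries. Dnah5 and Dnah9 are near 0 in native sorts and highest in sorted D10 cultures, Dnah11 has 1 sorted D0 library at 25.9 TPM, and Dnah7a is higher in both Atoh1 libraries than in both sorted D10 libraries.

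Inner arm heavy chains shape the waveform. Of those tested, Dnah2, Dnah6 and Dnah7b were higher in both sorted D10 libraries than in both Atoh1 libraries, and Dnah7a was lower. Dnah7b differed by 0.42 (SE 0.38), which did not pass the threshold. Dnah2 read 1.56 and 2.26 TPM in the Atoh1 sort, 1.06 and 0.788 in the Lgr5 sort and 1.74 and 1.79 in the Sox2 sort. In sorted cultures Dnah2 read 1.08 and 0.0329 TPM at D0 and 8.22 and 4.47 at D10, and in unsorted cultures 1.7 and 0.652 TPM at D0, 0.747 and 0.36 at D2, 1 and 2.21 at D4 and 1.18 and 2.07 at D10. Its difference from the Atoh1 sort was 1.30 (SE 0.42, adjusted p = 0.0696), while it rose by 2.28 (SE 0.42, adjusted p = 0.00273) from sorted D0 to D10. Dnah7a went the other way: it read 9.35 and 7.63 TPM in the Atoh1 sort, 2.36 and 4.39 in the Lgr5 sort and 3.02 and 9.35 in the Sox2 sort. In sorted cultures Dnah7a read 0.639 and 0.00197 TPM at D0 and 6.12 and 3.89 at D10, and in unsorted cultures 0.972 and 0.578 TPM at D0, 0.244 and 0.809 at D2, 1.56 and 2.88 at D4 and 3.39 and 4.34 at D10. Both Atoh1 libraries lay above both sorted D10 libraries, by a difference of -0.68 (SE 0.48, adjusted p = 0.401). Of the 75-base windows of Dnah7a, 26.6% also occur in other genes and 18.6% in its neighbour in sequence, Dnah7b, so the split of reads between these copies is uncertain. Dnah6 was named after its values were seen, since it is 1 of the 4 genes above. It read 0.199 and 0.558 TPM in the Atoh1 sort, 0 and 0 TPM at D0 and 3.38 and 1.54 at D10 in sorted cultures and 0.15 and 0.868 TPM in unsorted D10 cultures, and its difference from the Atoh1 sort was 1.29 (SE 0.31, adjusted p = 0.0203). By summed TPM, outer arm heavy chains reached 10.2 times the Atoh1 mean in sorted D10 cultures. Inner arm heavy chains reached 1.25 times, and 2.31 times without Dnah7a. The difference between the classes was not tested.

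Of the smaller dynein subunits, Dnali1, a light intermediate chain of inner arms (chr4:125055338-125065703, minus strand), read 2.42 and 2.91 TPM in the Atoh1 sort, 1.47 and 1.65 in the Lgr5 sort and 1.37 and 1.36 in the Sox2 sort. In sorted cultures Dnali1 read 0.413 and 0 TPM at D0 and 13.5 and 9.74 at D10, and in unsorted cultures 0.284 and 0.261 TPM at D0, 0.253 and 0.592 at D2, 1.06 and 4.05 at D4 and 2.94 and 7.31 at D10. Every sorted D10 value exceeded every native value, by 1.77 (SE 0.44, adjusted p = 0.0241) against the Atoh1 sort, and Dnali1 rose by 3.39 in sorted and 2.17 in unsorted cultures. Dnal1, a light chain of the outer arm, was present throughout, with 9.44 and 7.78 TPM in the Atoh1 sort, 5.8 and 5.08 in the Lgr5 sort and 5.62 and 4.8 in the Sox2 sort. In sorted cultures Dnal1 read 5.44 and 2.36 TPM at D0 and 14 and 8.95 at D10, and in unsorted cultures 4.91 and 4.32 TPM at D0, 2.48 and 5.12 at D2, 3.48 and 7.01 at D4 and 3.28 and 4.98 at D10. Dnal1 rose by 1.39 (SE 0.42, adjusted p = 0.0325) in sorted cultures and did not pass in unsorted ones.

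Dynein arms are put together in the cytoplasm by assembly factors, of which Zmynd10 and Lrrc6 act together. Zmynd10 read 6.1 and 6.42 TPM in the Atoh1 sort, 2.44 and 3.22 in the Lgr5 sort and 3.06 and 3.5 in the Sox2 sort. In sorted cultures Zmynd10 read 0.0245 and 0.813 TPM at D0 and 37.2 and 30.9 at D10, and in unsorted cultures 0.411 and 0.378 TPM at D0, 0.441 and 0.774 at D2, 1.32 and 6.02 at D4 and 2.27 and 18.2 at D10. Sorted D10 libraries lay far above both Atoh1 libraries, by 2.27 (SE 0.69, adjusted p = 0.0552), which missed the threshold. Lrrc6 read 4.36 and 4.37 TPM in the Atoh1 sort, 1.22 and 1.72 in the Lgr5 sort and 1.83 and 3.22 in the Sox2 sort. In sorted cultures Lrrc6 read 0.249 and 0.243 TPM at D0 and 11.5 and 8.45 at D10, and in unsorted cultures 0.159 and 0.181 TPM at D0, 0.296 and 0.168 at D2, 1.06 and 3.79 at D4 and 3.67 and 5.6 at D10. Lrrc6 differed from the Atoh1 sort by 1.02 (SE 0.39, adjusted p = 0.116), and rose by 3.13 in sorted and 2.25 in unsorted cultures, where Zmynd10 rose by 4.68 and 2.51.

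Radial spokes link the doublets to the central apparatus, and Rsph1, Rsph4a and Rsph9 belong to the spoke head. Rsph9, the most abundant of them over the 18 libraries, read 82.7 and 68.3 TPM in the Atoh1 sort, 33.4 and 68.2 in the Lgr5 sort and 45.2 and 41.4 in the Sox2 sort. In sorted cultures Rsph9 read 8.87 and 11.3 TPM at D0 and 150.4 and 151 at D10, and in unsorted cultures 21.7 and 15.7 TPM at D0, 18.6 and 20.6 at D2, 18.2 and 62.6 at D4 and 50.8 and 68.2 at D10. Rsph1 read 50.8 and 96.5 TPM in the Atoh1 sort, 27.5 and 37.1 in the Lgr5 sort and 40.2 and 50.8 in the Sox2 sort. In sorted cultures Rsph1 read 16.2 and 10.8 TPM at D0 and 89.1 and 96.2 at D10, and in unsorted cultures 8.41 and 13.8 TPM at D0, 4.25 and 6.58 at D2, 6 and 38.7 at D4 and 21.9 and 60.7 at D10. Rsph1 was the 1 member at 10 TPM or more in both sorted D0 libraries, and Rsph9 reached that level in 1 of them. Rsph4a, scarcer, read 3.45 and 4.76 TPM in the Atoh1 sort, 1.4 and 2.46 in the Lgr5 sort and 1.57 and 2.17 in the Sox2 sort. In sorted cultures Rsph4a read 0.249 and 0.0302 TPM at D0 and 7.46 and 4.95 at D10, and in unsorted cultures 0.363 and 0.551 TPM at D0, 0.326 and 0.904 at D2, 1.3 and 7.46 at D4 and 4.71 and 6.72 at D10. All 3 rose in sorted cultures, by 3.79 (Rsph9), 2.72 (Rsph1) and 2.65 (Rsph4a), and Rsph4a passed in unsorted ones (2.19, adjusted p = 0.0233). Rsph9 gave 1.62 (SE 0.47, adjusted p = 0.0605) there, and passed with the replicate number as a block (adjusted p = 0.0424 with limma).

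Central apparatus genes were scarce in all groups. Spag16, the member named for them by abundance, read 3.31 and 2.89 TPM in the Atoh1 sort, 1.03 and 0.899 in the Lgr5 sort and 0.783 and 0.604 in the Sox2 sort. In sorted cultures Spag16 read 0.0529 and 0.116 TPM at D0 and 4.8 and 0.984 at D10, and in unsorted cultures 0.156 and 0.0404 TPM at D0, 0.0359 and 0.00585 at D2, 0.195 and 0.588 at D4 and 0.769 and 2.76 at D10. Spag16 rose by 1.65 (SE 0.45, adjusted p = 0.02) in sorted cultures, and Spag16 had the smallest adjusted p of the native comparison at 0.233 (difference 1.17). Spag17, of the same structure, was listed at 0 in both sorted D10 libraries and was the 1 member lower there than at sorted D0 by sign (-0.31, SE 0.28, adjusted p = 0.472). It reached at most 1.13 TPM, in unsorted D0 replicate 1. Hydin, also central, reached 2.59 and 1.34 TPM in sorted D10 cultures and at most 0.762 TPM in the other libraries. The class summed to 4.4 and 3.81 TPM in the Atoh1 sort and 7.85 and 3.25 TPM in sorted D10 cultures, which overlap.

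The remaining axoneme proteins summed to 683 TPM on average in sorted D10 cultures, above the 585 TPM of the regulatory complex and ruler, while in the Atoh1 sort they came to 356 TPM against 444. Tektins form filaments inside the doublets. Tekt2 read 129.9 and 81.3 TPM in the Atoh1 sort, 47 and 61.9 in the Lgr5 sort and 44.1 and 42.4 in the Sox2 sort. In sorted cultures Tekt2 read 3.05 and 1.72 TPM at D0 and 205 and 136 at D10, and in unsorted cultures 0.782 and 1.67 TPM at D0, 2.83 and 6.8 at D2, 18.9 and 75.6 at D4 and 12 and 62.3 at D10. Unsorted D10 cultures were lower than the Atoh1 sort by value (-1.85, SE 0.73, adjusted p = 0.126), sorted ones were not (0.70), and the sorted cultures exceeded the unsorted ones by 2.55 (SE 0.73, adjusted p = 0.0587). Tekt1 read 78 and 74.4 TPM in the Atoh1 sort, 33 and 61.2 in the Lgr5 sort and 34.3 and 53.2 in the Sox2 sort. In sorted cultures Tekt1 read 9.73 and 4.96 TPM at D0 and 131 and 118 at D10, and in unsorted cultures 4.69 and 7.28 TPM at D0, 4.44 and 13.8 at D2, 17.8 and 70.8 at D4 and 38.7 and 62.4 at D10. Tekt4 read 2.89 and 2.66 TPM in the Atoh1 sort, 1.54 and 0.843 in the Lgr5 sort and 0.702 and 1.2 in the Sox2 sort. In sorted cultures Tekt4 read 0 and 0.199 TPM at D0 and 10.2 and 7.87 at D10, and in unsorted cultures 0 and 0.035 TPM at D0, 0 and 0.0907 at D2, 0.205 and 2.79 at D4 and 1.29 and 5.69 at D10. All 3 tektins rose in both kinds of culture, in sorted ones by 3.97 (Tekt1), 5.66 (Tekt2) and 3.19 (Tekt4), and Tekt2 also by D4 (4.16). Tekt1 gave 2.42 (SE 0.62, adjusted p = 0.0584) by D4, and passed with the replicate block (adjusted p = 0.0277 with limma). Gm12945 overlaps 20.8% of the exonic bases of Tekt2 on the other strand.

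Cfap52 is a doublet-associated protein, and Cfap126 (Flattop) takes part in placing the basal body of inner ear hair cells. Cfap52 read 47.5 and 62.5 TPM in the Atoh1 sort, 17.4 and 30.6 in the Lgr5 sort and 27.5 and 31 in the Sox2 sort. In sorted cultures Cfap52 read 0.44 and 0.0208 TPM at D0 and 114 and 108 at D10, and in unsorted cultures 0.991 and 0.683 TPM at D0, 1.08 and 8.45 at D2, 16.7 and 77.7 at D4 and 28.8 and 74.7 at D10. Cfap126 read 75.5 and 55 TPM in the Atoh1 sort, 28.3 and 40.03 in the Lgr5 sort and 33.2 and 25.1 in the Sox2 sort. In sorted cultures Cfap126 read 0.537 and 0 TPM at D0 and 118 and 107 at D10, and in unsorted cultures 0.0723 and 0.488 TPM at D0, 0.816 and 2.93 at D2, 8.98 and 62.1 at D4 and 12.5 and 64.1 at D10. These were the largest rises of the list in sorted cultures, 6.53 (SE 0.75, adjusted p = 0.000181) for Cfap52 and 6.51 (SE 0.81, adjusted p = 0.000284) for Cfap126, and both had risen at D4, by 4.35 and 4.31.

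Cfap43 and Cfap44 form the tether of an inner dynein arm. Cfap44 read 11.1 and 15.2 TPM in the Atoh1 sort, 4.07 and 5.98 in the Lgr5 sort and 5.4 and 6.28 in the Sox2 sort. In sorted cultures Cfap44 read 0.432 and 0.0819 TPM at D0 and 51.9 and 32.8 at D10, and in unsorted cultures 0.914 and 1.14 TPM at D0, 0.628 and 0.676 at D2, 3.87 and 17.5 at D4 and 11 and 18 at D10. Cfap43 read 34.8 and 41.3 TPM in the Atoh1 sort, 15.1 and 14.9 in the Lgr5 sort and 15.6 and 17.5 in the Sox2 sort. In sorted cultures Cfap43 read 9.78 and 13.9 TPM at D0 and 140.3 and 85.4 at D10, and in unsorted cultures 21.7 and 8.86 TPM at D0, 32.4 and 8.33 at D2, 36.7 and 39.9 at D4 and 22.2 and 33.3 at D10. Cfap43 thus stood above its tether partner in every library of every group, and its unsorted values overlapped between D0 and D2. In sorted D10 cultures both exceeded every native library, with differences from the Atoh1 sort of 1.51 (SE 0.53, adjusted p = 0.091) for Cfap43 and 1.59 (SE 0.52, adjusted p = 0.0708) for Cfap44, neither past the threshold. Both rose in sorted cultures, by 3.13 and 5.09, and Cfap44 also in unsorted ones by 2.90.

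Among the transcription factors, Foxj1 (chr11:116330704-116335399, minus strand) read 11.2 and 25 TPM in the Atoh1 sort, 5.77 and 14 in the Lgr5 sort and 5.74 and 10.2 in the Sox2 sort. In sorted cultures Foxj1 read 0.0941 and 0.401 TPM at D0 and 14.8 and 23.8 at D10, and in unsorted cultures 0.996 and 0.726 TPM at D0, 1.9 and 3.24 at D2, 8.42 and 17.5 at D4 and 7.69 and 18.4 at D10. Sorted D10 values fell inside the range of the Atoh1 sort, and the difference of 0.15 (SE 0.56, adjusted p = 0.919) took either sign when single libraries were left out. Foxj1 had risen by D4 (2.83, SE 0.56, adjusted p = 0.0172), stood 2.81 (SE 0.56, adjusted p = 0.0111) above D0 at D10, and by 4.00 in sorted cultures. Rfx2 read 1.36 and 1.98 TPM in the Atoh1 sort, 0.974 and 0.858 in the Lgr5 sort and 1.24 and 0.756 in the Sox2 sort. In sorted cultures Rfx2 read 1.24 and 0.455 TPM at D0 and 5.47 and 2.31 at D10, and in unsorted cultures 1.26 and 1.27 TPM at D0, 0.793 and 0.761 at D2, 1.43 and 3.13 at D4 and 1.91 and 2.63 at D10. Rfx2 rose by 1.36 (SE 0.38, adjusted p = 0.0225) in sorted cultures. Rfx3 read 12.5 and 9.11 TPM in the Atoh1 sort, 10.4 and 5.43 in the Lgr5 sort and 7.24 and 8.15 in the Sox2 sort. In sorted cultures Rfx3 read 6.52 and 4.25 TPM at D0 and 12.8 and 5.54 at D10, and in unsorted cultures 6.22 and 5.75 TPM at D0, 5.86 and 6.78 at D2, 6.71 and 7.19 at D4 and 5.61 and 8.02 at D10. Rfx3 gave 0.59 (SE 0.40, adjusted p = 0.307) in sorted cultures, with overlapping libraries, so of the 3 factors Foxj1 had the widest range in fold over the 18 libraries and Rfx3 the narrowest. All 3 factors together summed to 1.06 times the Atoh1 mean in sorted D10 cultures, where the 40 genes summed to 1.62 times.

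A list of 64 further genes of the axoneme and of dynein arm assembly was counted beside the members, and 60 were tested. In sorted cultures 51 of 60 rose from D0 to D10 and 1 (Cfap100) fell, with a median of 3.11, where 13.3% of all genes rose and 10.7% fell. In unsorted cultures 25 rose and 0 fell by D10 (3.05% and 4.34% of all genes), 11 and 0 by D4 (1.09% and 2.29%), and 0 and 0 by D2. Against the Atoh1 sort, sorted D10 cultures were higher in 5 and lower in 1, with a median of 0.43, where 4.51% of all genes were higher and 7.34% lower, with a median of -0.11. Unsorted D10 cultures were higher in 1 and lower in 4, with a median of -0.64, against 3.99%, 8.01% and -0.15 for all genes. The 5 (named after their values were seen) were Cfap161 (4.70), Cfap46 (3.45), Dnai1 (2.01), Cfap65 (1.87) and Cfap73 (1.23), and the 1 lower was Cfap100 (-1.64). Cfap73 was listed at 0 in both Atoh1 and both sorted D0 libraries. Which of the 60 were tested only because they were high in sorted D10 cultures was not checked. The counts that use that group may include such genes. Cfap161, an axoneme-associated protein, read 14.7 and 8.65 TPM in the Atoh1 sort, 59.3 and 168 in unsorted D10 and 366 and 279 in sorted D10 cultures. Dynlrb2, the most abundant of the list and a light chain of cytoplasmic and ciliary dynein, read 334 and 348 TPM in the Atoh1 sort, 2.38 and 3.4 in sorted D0 and 194 and 214 in sorted D10 cultures. Dnai2, an intermediate chain of the outer arm, was lower in unsorted D10 cultures than in the Atoh1 sort (-2.30, SE 0.61, adjusted p = 0.0303), at 20.1 and 41.7 TPM against 126 and 172. Sorted D10 cultures held 112 and 83.2 TPM of Dnai2, while the native libraries listed the outer arm heavy chain Dnah5 at or near 0.

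Intraflagellar transport and BBSome genes, which serve immotile cilia too, were tested in full. Of 37 tested, 16 rose and 1 fell in sorted cultures from D0 to D10 (median 0.89), where 13.3% of all genes rose and 10.7% fell. In unsorted cultures 1 rose and 1 fell (median 0.26), near the 3.05% and 4.34% of all genes. Against the Atoh1 sort, 0 were higher and 1 (Bbip1, a BBSome subunit) lower in sorted D10 cultures, at a difference of -1.44 (SE 0.29, adjusted p = 0.00825), and 0 were higher and 5 lower in unsorted ones. For all genes the shares were 4.51% higher and 7.34% lower in sorted D10 cultures, and 3.99% and 8.01% in unsorted ones. Ift172, a transport subunit, read 104 and 111 TPM in the Atoh1 sort, 14.4 and 8.68 in sorted D0 and 78.9 and 45.5 in sorted D10 cultures. The gene that fell, Ttc21b, is a subunit for transport back from the ciliary tip and went from 6.96 and 3.98 TPM in sorted D0 to 0.828 and 0.447 TPM in sorted D10 cultures.

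Multiciliated cells carry many motile cilia rather than 1. Of 12 regulators of such cells 6 were tested, too few to set against other genes, and 0 rose and 3 fell in sorted cultures from D0 to D10 (median -0.31). Of all genes 13.3% rose and 10.7% fell there. Against the Atoh1 sort, 1 of the 6 was higher and 2 were lower in sorted D10 cultures, where 4.51% of all genes were higher and 7.34% lower. In unsorted D10 cultures 1 was higher and 1 lower, against 3.99% and 8.01% of all genes. Gmnc, which starts the programme, was at most 0.0777 TPM in the 18 libraries, and Mcidas, its partner, at most 0.532 TPM. Ccno, which acts in centriole production, was higher in sorted D10 cultures than in the Atoh1 sort by 1.68 (SE 0.31, adjusted p = 0.00493), at 2.09 and 2.86 TPM against 0.11 and 0.0539, but read 2.06 and 0.645 TPM at sorted D0. Of 12 markers of multiciliated and secretory cells of airway, middle ear and ependyma, 1 (Tubb4b) passed the filter on low values, and Scgb1a1 and Scgb3a2 were listed at 0 in both libraries of the Atoh1 sort and of sorted D10 cultures. Tubb4b, a tubulin also found outside cilia, read 277 and 367 TPM in the Atoh1 sort and 283 and 246 in sorted D10 cultures. Among 5 other RFX genes 3 were tested, with 0 past the threshold in any of the comparisons.

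Markers of other cells moved beside these differences. Between the Atoh1 sort and sorted D10 cultures, the summed mesenchyme markers went from 150 and 126 TPM to 2.5 and 2 TPM (4 of 6 tested lower), glial markers from 268 and 115 to 10.5 and 24.8 (3 of 6 lower), erythroid markers from 193 and 281 to 0.712 and 0.352 (4 of 5 lower), and immune markers from 32.4 and 24.6 to 8.05 and 6.23 (0 of 2 tested). Neuron markers read 235 and 285 TPM and 313 and 218 TPM (2 of 7 lower). Supporting cell markers summed to 2106 and 1274 TPM in the Atoh1 sort and to 6489 and 7584 TPM in sorted D10 cultures, mostly through S100a1 (6313 and 7335 TPM), while 5 of the 12 were lower and 1 higher, with a median of -1.92. Hair cell markers were higher in 1 of 12 and lower in 0, with a median of -0.57. From D0 to D10, neuron markers went from 9.13 and 1.79 to 313 and 218 TPM in sorted cultures (3 of 7 higher), and from 12.1 and 10.4 to 69.9 and 202 TPM in unsorted ones (2 of 7 higher). Choroid plexus markers read 7.86 and 4.14 TPM in the Atoh1 sort and 3.54 and 2.57 TPM in sorted D10 cultures. They read 79.9 and 68.4 TPM in unsorted D0 and 95.1 and 22.4 TPM in unsorted D10 cultures, mostly Clic6 (94.7 and 19.3 TPM at D10), with Ttr listed at 0 in both groups. Against the Atoh1 sort 0 of the 2 tested choroid plexus markers passed in either kind of D10 culture. Cycling markers (4 of 4 lower) went from 219 and 262 TPM in sorted D0 to 3.55 and 1.83 in sorted D10 cultures. The part of these shifts in the axoneme differences was not tested.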

How the data were processed

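RNA was measured in 18 mouse cochlear libraries (9 groups of 2, grouped and numbered from their titles). Per the labels' protocols, cDNA was amplified from a small RNA input and read as single ends of 75 bases, with kits that do not mark the strand. Each deposited file lists genes with their TPM, scaled by the authors to a fixed total per library. Per the submitters' processing notes, STAR, Salmon, FastQC and DESeq2 were used on mm10, with no version or role stated. TPM keep no depth, so counting error is unknown, and a rise in abundant genes lowers the others. A tamoxifen protocol attached to the samples fits none of their titles and was set aside.

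Of 47729 gene identifiers 47224 matched a name. Positions are from GENCODE M21 (GRCm38) and start windows from RefSeq. Values were changed to log2(TPM + 1), which understates the change of low genes, and 20463 genes reached 1 TPM in 2 or more libraries. These went into 1 limma 3.58.1 fit (R 4.3.3, moderated with a trend, 1 mean per group, 9 residual and 2.8 prior degrees of freedom). Tests are two-sided, with p adjusted by Benjamini-Hochberg per comparison over all tested genes at a threshold of 0.05. The script was tested on simulated data. Tables used Python 3.11.15 and pandas 2.3.3.

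The 40 genes and all other lists were chosen with earlier results of these data known. Values in every library are given for Drc1, members past the threshold whose higher group averages at least 5 TPM, the most abundant member of each role, Foxj1, Rfx2 and Rfx3. Other lists were limited to counts and a few genes. Alternatives were a pseudocount of 0.1, no filter, a filter of 5 TPM, median-of-ratios scaling, the compared groups alone, a replicate block and each replicate left out. Replicate numbers follow the sequencing date: all replicate 2 libraries share 1 date and replicate 1 libraries the 2 others, so date and replicate cannot be told apart. Per the labels, each replicate number has 1 RNA extraction date within the unsorted cultures and 1 within the sorted cultures. For 7 libraries, unsorted replicate 1 included, that date is later than the sequencing date. Deviations of same-numbered unsorted samples correlated at 0.211 to 0.483 in all 6 pairs of groups, and those of the 2 sorted groups at 0.143, so these numbers were taken to pair the samples within each series.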

Additional observations from a re-analysis of the deposited data

How the results depend on the processing

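The number of members called, out of 34, moved with the settings. For sorted D10 cultures against the Atoh1 sort the count of 4 became 1 with a pseudocount of 0.1, 2 with a filter of 5 TPM, 9 with median-of-ratios scaling and 1 in a fit of the compared groups alone, and 1 to 3 with a replicate left out. For unsorted D10 cultures against the Atoh1 sort the count of 0 became 1 with a pseudocount of 0.1, with the scaling and with the replicate block, and 0 to 1 with a replicate left out. For unsorted D10 against D0, 17 became 0 in the compared groups alone and 4 to 18 with a replicate left out, and for D4 against D0, 9 became 0 and 0 to 16. For sorted against unsorted D10 cultures, 2 became 0 with a pseudocount of 0.1, 0 with a filter of 5 TPM, 9 with the replicate block, 7 with the scaling, 0 in the compared groups alone and 0 to 10 with a replicate left out. The difference of the 2 changes gave 0 to 2 with a replicate left out. The filter and the fits of fewer libraries test fewer genes or use fewer samples, and otherwise the cause was not tested. The counts for the native comparison and for D2 against D0 were 0 in every fit made, and the 31 of sorted D10 against D0 ranged from 21 to 31.

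With the replicate number as a block, all 63 calls of members were kept, Dnah5 passed in unsorted D10 cultures against the Atoh1 sort (adjusted p = 0.0492 with limma), Zmynd10 in sorted ones (adjusted p = 0.0277 with limma), and the counts became 5 for sorted D10 against the Atoh1 sort and 18 and 10 for unsorted D10 and D4 against D0. Within the unsorted and within the sorted cultures, the block added Rsph9 (D10) and Tekt1 (D4) in unsorted cultures and changed no other call of a member. The block is 1 shift shared by all groups, so it is not a paired test of either series. Of 34 members, 33 were higher in replicate 2 in unsorted D10 cultures, and 30 were higher in replicate 1 in sorted ones. Across the other groups samples share only a number: over all groups, deviations of same-numbered samples correlated above 0.1 in 18 of 36 pairs, from -0.0187 to 0.483. Of the 63 calls 62 were kept under the scaling, 58 with a pseudocount of 0.1, 56 without a filter and 21 in the compared groups alone. The difference of Foxj1 between sorted D10 cultures and the Atoh1 sort ranged from -0.394 (without Atoh1 replicate 1) to 0.693, and was -0.176 without sorted D10 replicate 2. Dnah11 in sorted D10 against sorted D0 ranged from -1.828 (without sorted D0 replicate 1, adjusted p = 0.0279 with limma) to 2.826. A fit without sorted D0 replicate 2, added after the data were seen, gave 6 members for sorted D10 against the Atoh1 sort (Dnah11 and Dnah2 added), 15 for unsorted D10 against D0, 9 for D4 and 3 for sorted against unsorted D10 cultures. Where 1 library remained in a group, it was assumed to vary like the others. Read depth, and with it the error of values near 0, could not be assessed.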
